A study of Mus musculus with 8 samples.

Results

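The genes described here set the length of the poly(A) tail of mRNAs. They are Cpeb1, Cpeb2, Cpeb3, Cpeb4, Cnot6, Cnot6l, Cnot7, Cnot8, Parn and Papola, found by an exact match of the gene name that the array files give for each probe. The 10 names were matched by 24 of 41174 probes, and the array carries 27962 gene names in all. All 10 genes and 22 of their 24 probes were measured, meaning that at least 1 of the 4 groups had them well above background on each of its arrays, as were 17593 genes and 25629 probes of the whole array.

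The study tagged Dazl, a protein that binds RNA in germ cells, with GFP and V5 and recovered the RNA held by it without crosslinking. The question of the comparisons is which transcripts are recovered with the tagged protein. The 8 arrays form 4 groups of 2, all from testes of male mice at postnatal day 14, of a mixed C57BL/6 129SV strain, and all carrying the Dazl-GFP-V5 fusion. The groups are a precipitate with an antibody against V5, a precipitate with an antibody against GFP, a mock precipitate with normal mouse IgG, and the input, total RNA with no precipitation. A group without the fusion is not among these samples, and the labels do not state which promoter drives it or whether the 2 replicates of a group came from different animals, so p-values measure only the spread between these samples.

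A poly(A) tail is added to an mRNA in the nucleus by a poly(A) polymerase, shortened in the cytoplasm by deadenylases, and, in germ cells and neurons, lengthened again on selected mRNAs. CPEB proteins bind a U-rich element in 3′ untranslated regions and recruit factors that shorten or lengthen the tail. Most cytoplasmic deadenylation is carried out by the CCR4-NOT complex, which holds a CCR4-type and a CAF1-type nuclease, and tail length is tied to translation and stability of maternal and spermatogenic mRNAs. What was measured here is how much of each regulator's own transcript was present in each RNA sample; tail lengths were not measured.

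Several facts of the whole series bear on every value below. The V5 and GFP arrays were scanned as 1 slide and the IgG and input arrays as another, so for comparisons across these pairs slide and group cannot be told apart, whereas V5 against GFP and IgG against input lie within a slide. PABP1 is the second antigen in the text of the series and GFP in the labels of the samples, and the descriptions of V5 replicate 1 and input replicate 2 contradict their titles; the titles were followed. The 75th percentile of the signal, by which each array was divided, lay between 857 and 1115, well above background were 57.2% to 62.2% of the spots, and none (0) was saturated. The median absolute log2 difference between the 2 arrays of a group over all genes was 0.092 for V5, 0.085 for GFP, 0.159 for IgG and 0.077 for input, so an error pooled over the groups may be too small where IgG is compared. With 2 arrays a group, their number limits the precision.

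The labels call the material germ cells, and the input held markers of other testis cells as well: all 8 measured Sertoli, 5 Leydig, 5 peritubular myoid, 6 leukocyte, 5 endothelial and 3 erythroid markers lay well above background on both input arrays. The summed level of 9 measured germ cell markers was 128 to 130 with V5, 144 to 159 with GFP, 87.3 to 92 with IgG and 188 to 189 in input, in multiples of the array's 75th percentile. The summed level of the 8 Sertoli markers was 135 to 142 with V5, 120 to 126 with GFP, 185 to 186 with IgG and 218 to 223 in input. Germ cell markers were higher over IgG for 6 of 9 with V5 and 6 of 9 with GFP and 0 were lower, whereas 7 of 8 Sertoli markers were lower with V5 and 8 of 8 with GFP; scaled to the spike-in spots, 0 Sertoli markers were lower with V5 and 2 with GFP, and 8 of 9 germ cell markers were higher with each. Of all genes 16.7% were higher and 40.3% lower with V5, and 21.6% higher and 52.1% lower with GFP; with spike-in scaling these shares were 37.3% and 4.55%, and 43.8% and 7.89%. Lower over IgG with V5 and with GFP were 5 and 5 of 5 Leydig, 5 and 5 of 5 myoid, 4 and 5 of 6 leukocyte, 4 and 5 of 5 endothelial, 2 and 3 of 3 erythroid and 3 and 4 of 4 spermatid markers, and none (0) of them was higher; with spike-in scaling 0 to 3 of each were lower. In such bulk RNA fewer cells of a type and less RNA per cell cannot be told apart, and the part of these markers in the results below was not tested.

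Each gene is read here by its probe with the highest mean. On these probes all 4 CPEB genes and 3 of the 4 CCR4-NOT nucleases, Cnot6, Cnot6l and Cnot7, were more abundant in the Dazl precipitates than in the mock precipitate. The range was 1.45-fold to 2.38-fold with V5 and 1.74-fold to 3.14-fold with GFP. With the mean of a gene's probes Cpeb3 was called with neither antibody (0.13 and 0.28 on the log2 scale) and Cpeb4 was not called with V5 (0.61). The transcripts of the CAF1-type nuclease Cnot8 and of the nuclease Parn were not called with V5 and were lower with GFP, by 1.32-fold and 1.42-fold, but this direction turned when the arrays were scaled to the spike-in spots. Papola, the canonical nuclear poly(A) polymerase, was not called in either comparison. With the mean of its probes Papola was called higher with both antibodies, at 0.41 with V5 (adjusted p = 0.00924) and 0.60 with GFP (adjusted p = 0.00117). In all, 7 of 10 regulators were higher with V5, where 16.7% of all genes tested were, and 0 were lower, where 40.3% were. With GFP 7 were higher and 2 lower, where 21.6% and 52.1% of all genes tested were. The median log2 fold change of the 10 genes was 0.65 with V5 and 0.92 with GFP, beside -0.21 and -0.32 over all genes. Without V5 replicate 1 and input replicate 2, the arrays with conflicting descriptions, 1 V5 array was left. Fewer regulators and fewer of all genes were then called with V5. The V5 values over IgG were then 1.06 for Cpeb2, 0.42 for Cpeb3, 1.06 for Cpeb4, 0.60 for Cnot6 and 0.61 for Cnot7. With a normexp background 0 regulators were called with V5 and 6 with GFP, where 0 and 3244 of all genes were. Calls are by limma with a Benjamini-Hochberg adjusted p under 0.05 over all genes.

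**Figure D1:**
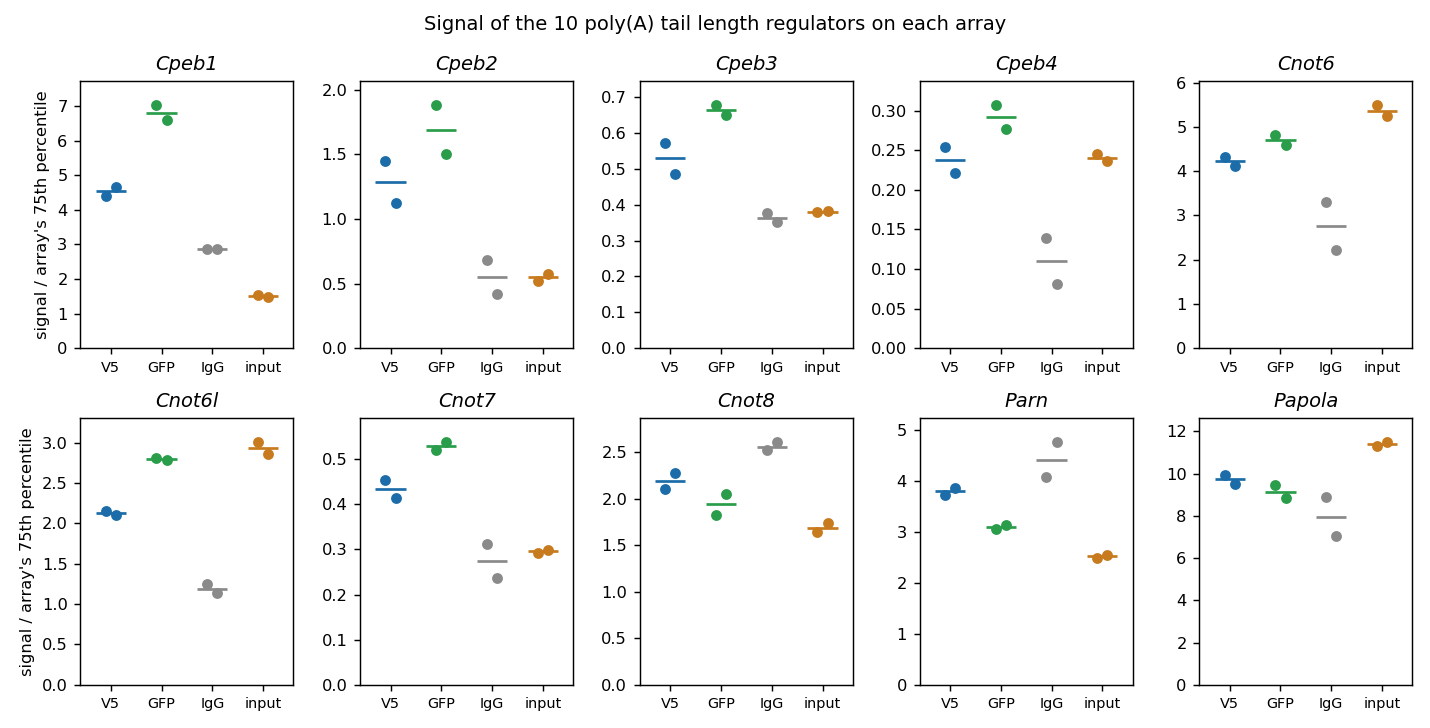
Signal of each regulator on each of the 8 arrays, as a multiple of that array's 75th percentile, with groups V5, GFP, IgG and input from left to right; points are arrays, lines are group means, and each panel has its own axis, since levels of different probes are not comparable. Cpeb1 sits at 6.59 to 7.02 with GFP and 1.49 to 1.55 in input, while Cnot8 and Parn are highest with IgG on this scale, which turned for GFP against IgG with spike-in scaling.

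Cpeb1 encodes the founding member of the CPEB family, which in mouse is required for meiotic prophase in germ cells. Its signal was 4.4 and 4.66 with V5, 7.02 and 6.59 with GFP, 2.88 and 2.87 with IgG and 1.55 and 1.49 in input. The 4 groups did not overlap, and the order from high to low was GFP, V5, IgG and input. Such separation is common with 2 arrays a group: 71.3% of all genes did not overlap in V5 against GFP and 90.2% in GFP against input. The other comparisons lay between these shares. Over IgG its log2 fold change was 0.66 ± 0.069 with V5 (SE, adjusted p = 0.00154) and 1.24 ± 0.069 with GFP (adjusted p = 9.21e-05). The IgG precipitate itself held more Cpeb1 signal than input, by 0.92 ± 0.069 on the log2 scale (adjusted p = 4.07e-05), which was 0.08 with spike-in scaling (adjusted p = 0.482).

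Cpeb2 encodes a paralog expressed in testis and brain. Its signal was 1.45 and 1.12 with V5, 1.88 and 1.5 with GFP, 0.679 and 0.422 with IgG and 0.521 and 0.576 in input. Every V5 and GFP array lay above every IgG and input array, and IgG and input overlapped. The V5 and GFP arrays did not overlap, like those of 71.3% of all genes, and V5 against GFP was not called (adjusted p = 0.272). The log2 fold change over IgG was 1.25 ± 0.25 with V5 (adjusted p = 0.00791) and 1.65 ± 0.25 with GFP (adjusted p = 0.00129). The spread between arrays of a group was wide for this gene, and without V5 replicate 1, V5 replicate 2, IgG replicate 1 or IgG replicate 2 the V5 value lay between 0.91 and 1.6.

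Cpeb3, a CPEB protein best known from neurons, gave 0.574 and 0.487 with V5, 0.678 and 0.652 with GFP, 0.376 and 0.353 with IgG and 0.379 and 0.383 in input. IgG and input differed by -0.06 ± 0.093 (adjusted p = 0.551), and both Dazl precipitates lay above them. Over IgG the log2 fold change was 0.54 ± 0.093 with V5 (adjusted p = 0.00548) and 0.87 ± 0.093 with GFP (adjusted p = 0.000433). The second Cpeb3 probe did not share this: it gave -0.27 ± 0.14 with V5 (adjusted p = 0.15) and -0.31 ± 0.14 with GFP (adjusted p = 0.0954), and with the mean of both probes neither comparison was called (0.13, adjusted p = 0.323, and 0.28, adjusted p = 0.0556).

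Cpeb4, which acts after Cpeb1 in the meiotic divisions of frog oocytes, had signals of 0.254 and 0.222 with V5, 0.307 and 0.277 with GFP, 0.139 and 0.0816 with IgG and 0.246 and 0.236 in input. The IgG arrays were the lowest, and V5 and input overlapped. The log2 fold change over IgG was 1.16 ± 0.23 with V5 (adjusted p = 0.00824) and 1.45 ± 0.23 with GFP (adjusted p = 0.00163). The IgG arrays differed from each other, and the 95% interval of the V5 value ran from 0.6 to 1.72. With the mean of 3 Cpeb4 probes the V5 value was 0.61 and not called (adjusted p = 0.115).

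Cnot6 and Cnot6l encode the CCR4-type nucleases, which are alternative subunits of CCR4-NOT. Cnot6l gave 2.15 and 2.1 with V5, 2.81 and 2.79 with GFP, 1.25 and 1.14 with IgG and 3.01 and 2.86 in input. The groups did not overlap, as was so for 71.3% to 90.2% of all genes in each comparison, with input highest and IgG lowest. Over IgG Cnot6l was higher by 0.84 ± 0.073 with V5 (adjusted p = 0.00107) and by 1.23 ± 0.073 with GFP (adjusted p = 9.91e-05), on the log2 scale. Cnot6 gave 4.33 and 4.11 with V5, 4.82 and 4.59 with GFP, 3.3 and 2.21 with IgG and 5.49 and 5.25 in input, and again input was highest and IgG lowest. Its change over IgG was 0.64 ± 0.18 with V5 (adjusted p = 0.0215) and 0.80 ± 0.18 with GFP (adjusted p = 0.00607). Without IgG replicate 1 these values were 0.93 and 1.09, and without IgG replicate 2 they were 0.35 and 0.51. The V5 call for Cnot6 was lost without V5 replicate 1 (adjusted p = 0.0919), without V5 replicate 2 (adjusted p = 0.0667), without the filter on dim probes (adjusted p = 0.0523) and with only the 2 groups in the fit (adjusted p = 0.0534). The probe that stands for Cnot6 was designed on a cDNA clone that the array's annotation describes as having an apparent retained intron.

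Cnot7 and Cnot8 encode the CAF1-type nucleases, which occupy the same place in the complex, and male mice lacking Cnot7 are sterile. The pair differed in which arrays were highest. Cnot7 gave 0.454 and 0.414 with V5, 0.521 and 0.538 with GFP, 0.311 and 0.236 with IgG and 0.293 and 0.298 in input, so that V5 and GFP lay above all other arrays. Its log2 fold change over IgG was 0.68 ± 0.13 with V5 (adjusted p = 0.00739) and 0.97 ± 0.13 with GFP (adjusted p = 0.000889). Cnot8 gave 2.11 and 2.28 with V5, 1.83 and 2.05 with GFP, 2.52 and 2.61 with IgG and 1.64 and 1.74 in input, and here IgG was highest. Its log2 fold change over IgG was -0.23 ± 0.084 with V5 (adjusted p = 0.0581) and -0.41 ± 0.084 with GFP (adjusted p = 0.00489), and the GFP value was 0.16 (adjusted p = 0.135) with spike-in scaling. The ratio of the signals of the standing probes, those with the highest mean of each gene, of Cnot7 to Cnot8 within an array does not change when an array is divided by a factor of its own. Relative to its mean in input, the log2 ratio was 0.3 and 0.06 with V5, 0.7 and 0.59 with GFP and -0.5 and -0.95 with IgG. The 3 precipitates did not overlap in this ratio, which among them was highest with GFP. How often other pairs of genes separate in this way was not tested. Where the ratio lies relative to input rests on the Cnot7 probe. Over input the second Cnot7 probe gave -0.81 with V5 and -0.37 with GFP, where the standing Cnot8 probe gave 0.37 and 0.20.

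Parn encodes a poly(A)-specific ribonuclease outside CCR4-NOT. Its signal was 3.73 and 3.86 with V5, 3.06 and 3.13 with GFP, 4.07 and 4.76 with IgG and 2.49 and 2.54 in input. IgG was highest and input lowest. The log2 fold change over IgG was -0.21 ± 0.088 with V5 (adjusted p = 0.0757) and -0.51 ± 0.088 with GFP (adjusted p = 0.00223), which became 0.06 with spike-in scaling (adjusted p = 0.528). Without IgG replicate 1 the V5 value was -0.33 and was called (adjusted p = 0.00993). Papola gave 9.95 and 9.53 with V5, 9.48 and 8.83 with GFP, 8.88 and 7.06 with IgG and 11.3 and 11.5 in input. GFP and IgG overlapped, and input was highest. Its log2 fold change over IgG was 0.30 ± 0.11 with V5 (adjusted p = 0.0627) and 0.21 ± 0.11 with GFP (adjusted p = 0.141). Both were called as higher when the arrays were scaled to their median (adjusted p = 0.0127 and 0.0129) or to the spike-in spots (adjusted p = 0.0128 and 0.0065), and without IgG replicate 1 (0.46, adjusted p = 0.00629, and 0.37, adjusted p = 0.00763), whereas without IgG replicate 2 they were 0.13 (adjusted p = 0.2) and 0.04 (adjusted p = 0.637).

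**Figure D2:**
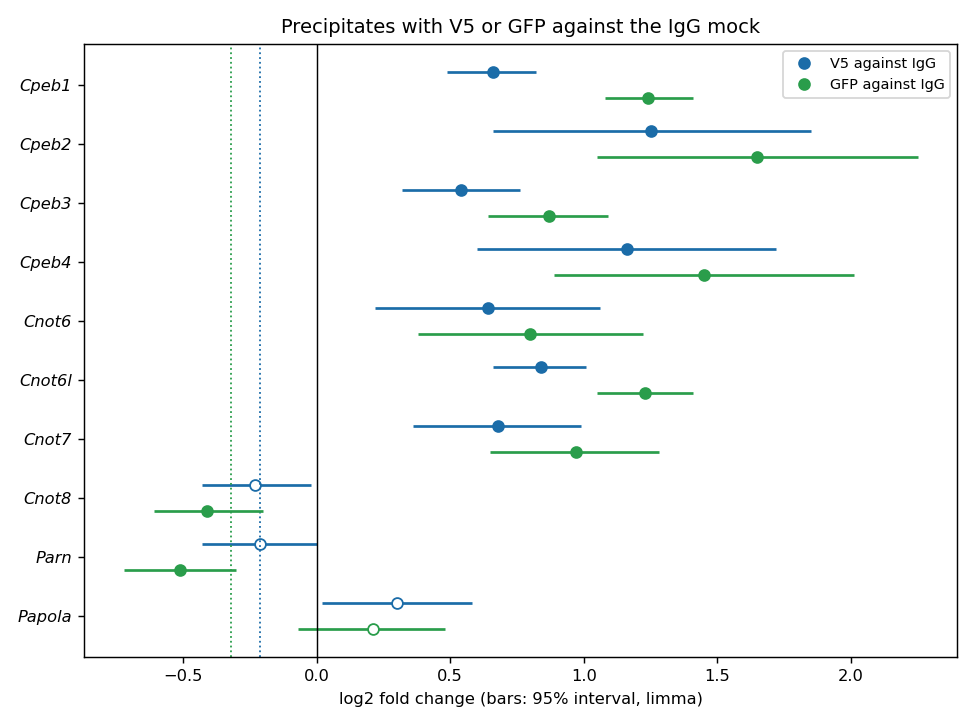
Log2 fold change of each regulator with V5 (blue) and GFP (green) over IgG, with 95% intervals from limma; filled points are called at an adjusted p under 0.05, and dotted lines are the medians of all 17593 genes, -0.21 and -0.32. Cpeb1 to Cnot7 lie to the right of 0 with both antibodies, and Cnot8 and Parn lie near the medians of all genes.

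The zero of these comparisons depends on how the arrays are scaled. With the 75th percentile, 29.3% of all genes called with V5 and 29.3% of those called with GFP were higher than in IgG; with spike-in spots these shares were 89.1% and 84.7%, with the array median 75.5% and 52.6%, and with quantile normalization 39.5% and 36.1%. The median of all genes moved with it and was 0.21 with V5 and 0.24 with GFP under spike-in scaling. Relative to the median of all genes, the 7 genes that were called lay 0.74 to 1.46 higher with V5 and 1.12 to 1.97 higher with GFP on the log2 scale. On the same relative scale Cnot8 lay at -0.02 with V5 and -0.08 with GFP, Parn at -0.01 and -0.18, and Papola at 0.51 and 0.53. With spike-in scaling 8 of the 10 regulators were called higher and 0 lower with each antibody. Of all genes 37.3% were then higher and 4.55% lower with V5, and 43.8% higher and 7.89% lower with GFP.

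A check on the precipitated protein's own transcript came from Dazl, whose log2 fold change over IgG was 0.98 ± 0.15 with V5 (adjusted p = 0.00405) and 1.49 ± 0.15 with GFP (adjusted p = 0.000369) and over input -1.09 ± 0.15 with V5 (adjusted p = 0.000684) and -0.58 ± 0.15 with GFP (adjusted p = 0.0112), lower with both; the values over input were added after they had been seen. Whether its probe also reads the fusion's transcript was not tested. Pabpc1, which encodes the main cytoplasmic poly(A)-binding protein and is the antigen named in the series text, gave -0.22 ± 0.12 with V5 (adjusted p = 0.153) and -0.36 ± 0.12 with GFP (adjusted p = 0.034), which became 0.19 and 0.21, not called, with spike-in scaling.

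Most regulators were read by more than 1 probe. Over IgG 13 of the 22 measured probes were higher and 0 lower with V5, where 17.8% and 35.6% of all probes were, and 15 were higher and 3 lower with GFP, where 23.6% and 46.8% were. Of the 12 probes that do not stand for their gene, 10 had the sign of the standing probe with V5 and 11 with GFP. The exceptions were a Cpeb3 probe in both comparisons and a dim Cpeb4 probe with V5, at -0.38 ± 0.39 (adjusted p = 0.446). The second Cnot7 probe rose over IgG by 0.97 with V5 and 1.42 with GFP, the second Cnot6 probe by 0.73 and 1.10, and the second Cnot6l probe by 1.16 and 1.60. The second Cnot8 probe gave -0.26 with V5 (adjusted p = 0.0971) and fell by 0.43 with GFP (adjusted p = 0.0137), beside -0.23 and -0.41 for the first. Of 2 further Papola probes, both higher with GFP over IgG at 0.81 and 0.77, 1 was called with V5 at 0.58. The second Cpeb2 probe was not called with V5, at 0.20 ± 0.098 (adjusted p = 0.129), and rose with GFP by 0.62 ± 0.098 (adjusted p = 0.00171). The dimmest Cpeb2 probe was not well above background on either IgG array, and was at least 1.7-fold higher with V5 and at least 1.87-fold higher with GFP. It was kept only through the V5 and GFP arrays, so its being higher than IgG follows in part from the filter and is no separate support. The counts of probes above include it. The 2 probes that were not measured, 1 for Cpeb4 and 1 for Cnot6, were below background on all 8 arrays.

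**Figure D3:**
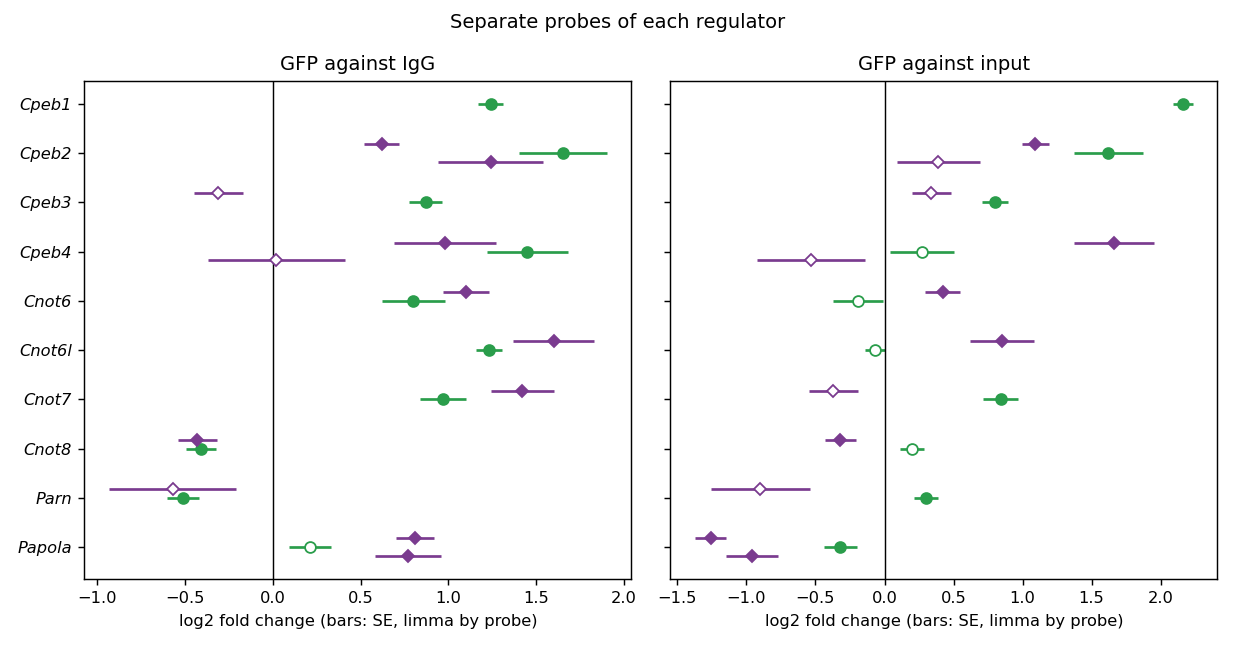
Log2 fold change of each measured probe with GFP over IgG (left) and over input (right), with SE from limma; circles are the probe that stands for the gene, diamonds are other probes, and filled symbols are called. Probes of a gene mostly share a side of 0 over IgG, while those of Cnot6, Cnot6l, Cnot7, Cnot8, Parn and Cpeb4 lie on both sides of 0 over input.

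Against input RNA Cpeb1 was 2.98-fold higher with V5 and 4.47-fold higher with GFP, and Cpeb2 2.33-fold and 3.07-fold higher. Cpeb3 and Cnot7 were higher with both antibodies, Cpeb4 and Cnot6 were called with neither, and Cnot6l was lower with V5 by 1.38-fold. Papola was lower with GFP, by 1.25-fold, and not called with V5. With V5, 6 of 10 regulators were higher and 1 lower, where 37.7% and 35.5% of all genes were. With GFP, 5 were higher and 1 lower, where 36.2% and 39.1% were. The median log2 fold change of the 10 was 0.42 with V5 and 0.29 with GFP, beside 0.01 and -0.06 over all genes. With spike-in scaling 2 were higher and 3 lower with V5, where 19.6% and 53.8% of all genes were. With GFP 4 were higher and 2 lower on that scaling, where 24.9% and 49.7% were. Of the genes called, 26.7% were higher with V5 and 33.3% with GFP, where the 75th percentile gave 51.4% and 48.1%.

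The log2 fold change of Cpeb1 over input was 1.58 ± 0.069 with V5 (adjusted p = 1.18e-05) and 2.16 ± 0.069 with GFP (adjusted p = 4.93e-06). Cpeb2 rose by 1.22 ± 0.25 with V5 (adjusted p = 0.00416) and 1.62 ± 0.25 with GFP (adjusted p = 0.00107). For Cpeb3 the values were 0.47 ± 0.093 (adjusted p = 0.00355; 0.05 and adjusted p = 0.724 with spike-in scaling) and 0.80 ± 0.093 (adjusted p = 0.000284). Cnot7 gave 0.55 ± 0.13 with V5 (adjusted p = 0.00814) and 0.84 ± 0.13 with GFP (adjusted p = 0.00114) by its standing probe. Its second probe lay the other way, at -0.81 ± 0.18 with V5 (adjusted p = 0.00704) and -0.37 ± 0.18 with GFP (adjusted p = 0.11), so the direction over input is not settled for Cnot7. Parn rose by 0.59 ± 0.088 with V5 (adjusted p = 0.000972) and 0.30 ± 0.088 with GFP (adjusted p = 0.0189), its dim second probe gave -0.90 in both, and with spike-in scaling neither was called (0.17 and 0.03). The GFP call for Parn and that for Papola (-0.32 ± 0.11, adjusted p = 0.041) were each lost without any 1 of the 4 arrays compared. By its standing probe Cnot8 rose by 0.37 ± 0.084 with V5 (adjusted p = 0.00662), which turned to -0.05 with spike-in scaling. With GFP that probe gave 0.20 ± 0.084 (adjusted p = 0.0735). The second Cnot8 probe gave -0.15 ± 0.11 with V5 (adjusted p = 0.276) and was lower with GFP, at -0.32 ± 0.11 (adjusted p = 0.0385). With the mean of its probes the V5 call was lost (0.11, adjusted p = 0.313), so the direction over input is not settled for Cnot8 either. Cnot6l fell by 0.46 with V5 (SE 0.073, adjusted p = 0.0013), while its second probe gave 0.42 ± 0.23 (adjusted p = 0.138). This call was lost with the arrays scaled to their median (-0.15, adjusted p = 0.151) and with the mean of its probes (-0.02, adjusted p = 0.888).

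The mock precipitate also differed from input, within 1 slide. With IgG, Cpeb1, Cnot8 and Parn were higher than in input and Cpeb4, Cnot6, Cnot6l and Papola were lower. That is 3 higher and 4 lower of 10, where 43.9% and 29.3% of all genes were, with a median of -0.10 beside 0.22 over all genes. The log2 fold change was -1.30 ± 0.073 for Cnot6l (adjusted p = 1.73e-05), -1.18 ± 0.23 for Cpeb4 (adjusted p = 0.00339), -0.99 ± 0.18 for Cnot6 (adjusted p = 0.00206) and -0.53 ± 0.11 for Papola (adjusted p = 0.00542). The second Cpeb4 probe gave 0.68 ± 0.29 (adjusted p = 0.072), and the Cpeb4 call was lost with the mean of its probes (-0.35, adjusted p = 0.311) and with a normexp background (-0.39, adjusted p = 0.236). The log2 fold change was 0.81 ± 0.088 for Parn (adjusted p = 0.000202) and 0.60 ± 0.084 for Cnot8 (adjusted p = 0.000681), which became -0.03 and -0.24 with spike-in scaling. Their second probes were not called, at -0.33 ± 0.36 for Parn (adjusted p = 0.433) and 0.11 ± 0.11 for Cnot8 (adjusted p = 0.409). With the mean of its probes the Parn call was lost (0.24, adjusted p = 0.305). Cnot7 was not called, but was lower without IgG replicate 1, at -0.32 (adjusted p = 0.0148), and at -0.96 both with spike-in scaling (adjusted p = 0.0017) and with the mean of its probes (adjusted p = 0.00153). Spike-in scaling called 0 regulators higher and 8 lower, where 12.3% and 64.2% of all genes were. Of the genes called, 16.1% were higher on that scaling, where the 75th percentile gave 60%. By their standing probes, Cpeb4, Cnot6 and Cnot6l were called higher in the Dazl precipitates than in the mock one and were not called higher than input; with the arrays scaled to their median, Cnot6l was called higher than input with GFP, at 0.27. Their second probes were called higher than input with GFP, at 1.66 for Cpeb4 (adjusted p = 0.00201), 0.42 for Cnot6 (adjusted p = 0.0235) and 0.85 for Cnot6l (adjusted p = 0.0128).

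**Figure D4:**
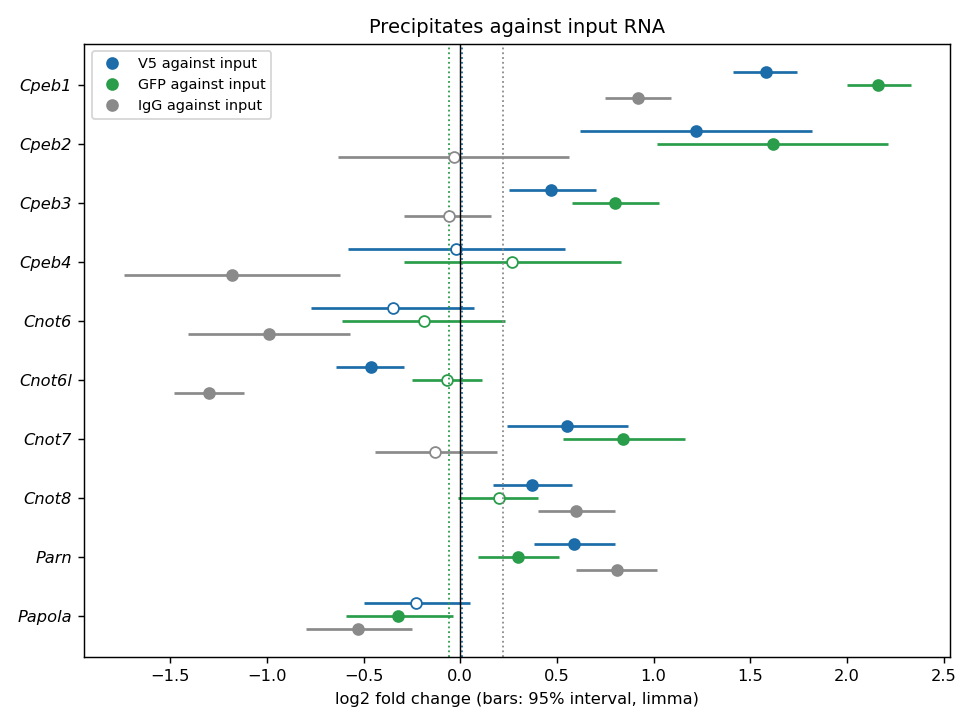
Log2 fold change over input with V5 (blue), GFP (green) and IgG (grey), with 95% intervals from limma; filled points are called, dotted lines are medians of all genes. Cpeb1 is called higher than input in all 3 precipitates on this scale, with GFP the highest at 2.16 (with spike-in scaling IgG is at 0.08), while Cpeb4, Cnot6 and Cnot6l are lower than input with IgG.

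Probes of a gene often lay on opposite sides of 0 over input. With V5 and with GFP, 6 of the 12 further probes had the opposite sign of the standing probe, against 2 and 1 over IgG; whether these counts differ was not tested. Papola's further probes were much lower in every precipitate, at -1.49 and -1.38 with V5, -1.26 and -0.96 with GFP and -2.07 and -1.74 with IgG over input, where the standing probe gave -0.23, -0.32 and -0.53. The second Cpeb4 probe was higher than input by 1.74 with V5 and 1.66 with GFP, where the standing probe gave -0.02 and 0.27. The array files used here give no probe sequence, so where along the transcript each probe lies was not tested. Of the 22 measured probes 9 were higher and 4 lower than in input with V5 and likewise with GFP, where 34.8% and 37.6%, and 34.5% and 39.9%, of all probes were; with IgG 5 were higher and 10 lower, where 40.2% and 33% were.

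With both antibodies on 1 slide, Cpeb1 and Cnot6l were lower with V5 than with GFP, by 1.5-fold and 1.31-fold. These were the 2 of 10 regulators called, both lower, where 6.76% of all genes were higher and 7.17% lower. Their log2 differences were -0.59 ± 0.069 (adjusted p = 0.0263) and -0.39 ± 0.073 (adjusted p = 0.0309). Both calls were lost without any 1 of the 4 arrays, with only the 2 groups in the fit (adjusted p = 0.0583 for each) and without the filter on dim probes. The 7 genes that were higher over IgG with both antibodies had differences between -0.59 and -0.16 and median -0.29 over all 10, beside 0.09 over all genes, and Dazl itself gave -0.51 ± 0.15 (adjusted p = 0.0638). Of the 22 probes, 3 were lower and 0 higher, where 6.77% and 4.71% were.

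Other genes, listed as linked to poly(A) tails, were taken from 7 lists with 66 measured genes. Whether each of them acts on tails was not tested. Over IgG 26 were higher and 12 lower with V5, which is 39.4% and 18.2%, and 34 were higher and 13 lower with GFP, which is 51.5% and 19.7%. Of all genes 16.7% were higher and 40.3% lower with V5, and 21.6% and 52.1% with GFP. The median log2 fold change of the lists was 0.18 with V5 and 0.31 with GFP. With spike-in scaling 49 were higher and 2 lower with V5, where 37.3% and 4.55% of all genes were, and 50 higher and 1 lower with GFP, where 43.8% and 7.89% were, so the lower counts of the lists below rest on the scaling. Among 7 other CCR4-NOT subunits 2 were higher and 3 lower with each antibody. Cnot4, a ubiquitin ligase that interacts with the complex, was higher by 0.95 ± 0.16 with V5 and 1.18 ± 0.16 with GFP, and Rqcd1, now called Cnot9, by 0.38 ± 0.078 and 0.87 ± 0.078. Cnot3, a scaffold subunit, fell by 0.59 with V5 and by 0.59 with GFP (SE 0.1), and was not called with spike-in scaling (-0.18 and -0.02). Among 5 other nucleases of the deadenylase type 2 were higher and 0 lower with each antibody: Ccrn4l, the nocturnin gene, by 0.97 ± 0.10 with V5 and 1.38 ± 0.10 with GFP, and Angel2 by 0.62 ± 0.10 and 0.97 ± 0.10. The rest of this list, Usp52 (Pan2), Pan3 and Angel1, was called with neither antibody.

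Adaptors that bring deadenylases to chosen mRNAs were higher for 6 and lower for 1 of 15 with V5, and higher for 10 and lower for 1 with GFP. Nanos1, an RNA-binding repressor that recruits CCR4-NOT, rose by 0.92 ± 0.085 with V5 and 1.39 ± 0.085 with GFP, and Zfp36l1, which binds AU-rich elements, by 0.54 ± 0.081 and 0.92 ± 0.081. Of 7 other nucleotidyltransferases 3 were higher with V5 and 4 with GFP, and 0 were lower: Papolg, a second nuclear poly(A) polymerase, rose by 0.69 ± 0.11 and 0.99 ± 0.11. Papd4, the cytoplasmic GLD-2 polymerase that works with CPEB in frog oocytes, rose by 0.50 ± 0.10 with V5 and 0.63 ± 0.10 with GFP. The cleavage and polyadenylation machinery went both ways, with 7 higher and 5 lower of 15 with each antibody. Cstf2t, the testis paralog of the CstF RNA-binding subunit, rose by 0.97 ± 0.068 with V5 and 1.51 ± 0.068 with GFP, and Nudt21, which helps choose the cleavage site, by 0.88 ± 0.097 and 1.55 ± 0.097.

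Of 7 poly(A)-binding proteins and their partners 3 were higher and 1 lower with V5, and 3 higher and 2 lower with GFP. Paip2, an inhibitor of the poly(A)-binding protein, rose by 1.01 ± 0.10 with V5 and 1.34 ± 0.10 with GFP, whereas Pabpc2, a testis poly(A)-binding protein, fell by 0.47 with V5 and by 0.76 with GFP (SE 0.066), and was not called with spike-in scaling (-0.06 and -0.20). Of 10 partners and repressors of CPEB 3 were higher and 2 lower with V5, and 6 higher and 2 lower with GFP. Lsm14a, an RNP granule protein, rose by 0.80 ± 0.079 with V5 and 1.14 ± 0.079 with GFP, and Eif4e, the cap-binding protein, by 0.72 ± 0.095 and 1.07 ± 0.095. The named genes in the 7 lists are those with the smallest p-values, their adjusted p lying between 7.45e-05 and 0.00894.

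**Figure D5:**
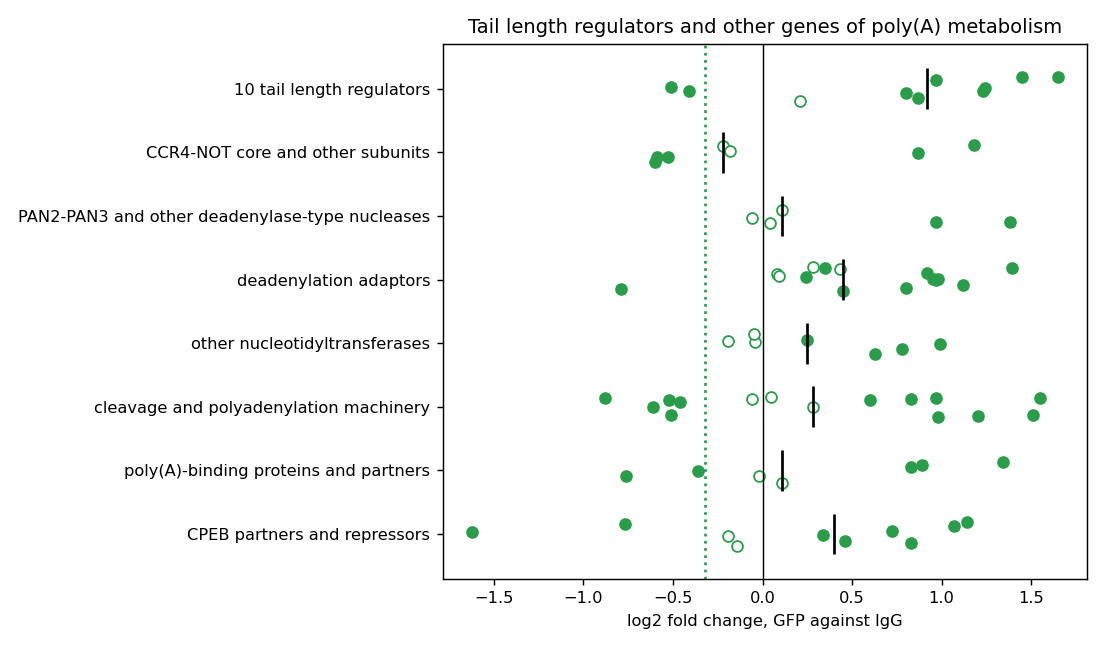
Log2 fold change with GFP over IgG of the 10 regulators and of the 7 lists; filled points are called, vertical bars are medians and the dotted line is the median of all genes, -0.32. The regulators have a median of 0.92, and the lists medians between -0.22 and 0.45.

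Across the 8 arrays, the genes whose pattern was most like that of Cpeb1 were Ube2q2 (Pearson r = 0.999) and Surf4 (r = 0.9986). For Cpeb2 they were Slc12a2 (r = 0.994) and Rap2c (r = 0.9929), and for Cpeb4 they were Tmed7 (r = 0.9965) and Fmr1 (r = 0.9952). These values describe 8 arrays in 4 groups of 2 and carry no test. They are the highest among tested genes with a value on every array, leaving out clone-like names and accessions. Among the regulators, Cpeb2, Cpeb3 and Cnot7 went together at r = 0.97 to 0.98, Cnot8 and Parn at 0.97, and Cnot6 and Cnot6l at 0.94, while Cnot8 and Cnot6l ran opposite at -0.92. Groups on 1 slide share that slide in these values.

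The authors' deposited table holds its own means for V5, GFP and input, and gave higher ratios over input than the 75th percentile scaling did for these 4 genes. The authors' deposited table put Cpeb1 at log2 ratios of 1.86 with V5 and 2.43 with GFP over input, and Cpeb2 at 1.52 and 1.98. For Cnot6l the authors' deposited table gave -0.21 with V5 and 0.19 with GFP, and for Papola 0.04 and -0.04. With the arrays scaled to their median, as the authors' deposited table is, the values computed here were 1.89 with V5 and 2.50 with GFP for Cpeb1, 1.53 and 1.96 for Cpeb2, -0.15 and 0.27 for Cnot6l, and 0.09 and 0.02 for Papola. The authors' values are ratios of the authors' means, normalized to the array median, with no SD or n, and the log2 input means and those computed here correlated at r = 0.997 over the 22 measured probes.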

How the data were processed

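Per the file headers, the intensity values deposited were extracted and background-subtracted with Agilent Feature Extraction 9.1.3.1; labelled RNA was hybridised to 1-colour arrays, per the labels' protocols. A further deposited table gives signal values that the authors averaged over V5, GFP and input, per the file headers; its 6 other value columns were not used. From each array the log2 of the processed signal minus its 75th percentile over non-control spots was taken. Outlier spots were left out, spots of a probe averaged, and probes kept where at least 1 group had them well above background on each of its arrays. The kept probe with the highest mean stood for a gene; 16 of the 24 regulator probes carry an accession that RefSeq (GRCm38.p6) pairs with the same symbol.

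Group means were fitted over 8 arrays with limma 3.58.1 in R 4.3.3 (4 residual and 2.41 prior degrees of freedom), with 6 comparisons, two-sided, adjusted by Benjamini-Hochberg over 17593 genes or 25629 probes at 0.05. Every adjusted p is from limma, and ± is SE. A bound ("at least") sets the bright group's mean against the lowest signal among probes well above background. The procedure was tested on simulated V5 and IgG data of 17593 genes, 200 of them changed: 28% of log2 changes of 0.5, 94% of 1, 92% of 1.5 and 98% of 2 were recovered, and 3.1% of calls were false. In the data themselves V5 against IgG called 10036 genes and its zero moved with the scaling, so these simulated shares need not hold there. Same-numbered replicates were not treated as pairs. Their deviations correlated at -0.08 to 0.11, which cannot show whether they came from the same animals. The regulators and lists were chosen with earlier results of these data known. Named genes are the 10 regulators, Dazl and Pabpc1, per list the called genes with the 2 smallest p with V5 and with GFP over IgG, and the 2 genes most like each of the 3 regulators with the largest GFP change among those called alike with both antibodies. Alternatives were other scalings, backgrounds, filters, probe rules and samples.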

Additional observations from a re-analysis of the deposited data

Results flagged for a closer look

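The change over IgG differed between the antibodies for 2 regulators, as tested by V5 against GFP, which holds the same IgG arrays on both sides. For Cpeb1 the log2 change over IgG with V5 minus that with GFP was -0.59 ± 0.069 (limma, adjusted p = 0.0263), with signals of 4.4 and 4.66 with V5, against 7.02 and 6.59 with GFP, in multiples of the array's 75th percentile. For Cnot6l it was -0.39 ± 0.073 (adjusted p = 0.0309), with 2.15 and 2.1 with V5, against 2.81 and 2.79 with GFP. Both calls are lost without any 1 of the 4 arrays. Groups of 2 were too small for a search for single outlying arrays.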

How the results depend on the processing

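For single regulators, 808 of 960 values under an alternative kept direction and call, 29 changed sign without a call in either setting, 75 lost the call, 37 gained it and 11 turned direction with a call in at least 1 setting; the cause was not tested. Of the values over input from the authors' deposited means, which are normalized to the array median, 17 moved by more than the spread between replicates. With normexp background 0 of 10 regulators were called in V5 against IgG (6 at an unadjusted p under 0.05) and 0 in V5 against GFP (2 unadjusted). There limma also called 0 of all genes (3702 and 804 unadjusted). Plain local background subtraction, an alternative chosen after seeing these data, called 10 and 3 regulators in these comparisons, where 11314 and 3766 of all genes were. With V5 replicate 1 and input replicate 2 left out together, 1 V5 array was left. The calls of Cpeb2, Cpeb3, Cpeb4, Cnot6 and Cnot7 in V5 against IgG were then lost. Lost as well were those in V5 against input of Cpeb2 (1.1), Cpeb3 (0.36) and Cnot7 (0.5), and those in V5 against GFP of Cpeb1 (-0.54) and Cnot6l (-0.41). The mean of a gene's probes called 4 in V5 against input and 1 in V5 against GFP, where 12663 and 2076 of all genes were. V5 against GFP also had 0 calls without the filter, with the replicate block and with only the 2 groups in the fit (4, 5 and 6 unadjusted), and 4 among genes above background on all arrays. Leaving out each array in turn left 1 array in a group, so only effect sizes are given here. Cnot6 then lay between 0.35 and 0.93 with V5 over IgG and between 0.51 and 1.09 with GFP. In V5 against GFP Cpeb1 lay between -0.63 and -0.54 and Cnot6l between -0.41 and -0.38. Deviations of same-numbered replicates correlated between -0.08 and 0.11. The replicate block otherwise left 8 regulators called in V5 against IgG, 9 in GFP against IgG and 7 in each comparison with input. Of all genes it called 9563 in V5 against IgG and 12804 in GFP against IgG. Against input it called 12754 of all genes with IgG, 12724 with V5 and 13140 with GFP.

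Among regulators called in at least 1 of the settings, directions turned in these cases. Scaled to the median, GFP against input became 0.27 for Cnot6l and 0.02 for Papola. Scaled to the spike-in spots, GFP against IgG became 0.16 for Cnot8 and 0.06 for Parn, IgG against input -0.24 for Cnot8 and -0.03 for Parn, and V5 against input -0.05 for Cnot8. Signs turned with no call in either setting include V5 against IgG with spike-in scaling, at 0.19 for Cnot8 and 0.20 for Parn. With the mean of a gene's probes, V5 against input became -0.13 for Cnot7 and -0.15 for Parn, and GFP against input 0.39 for Cnot6l and -0.30 for Parn.

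Over all genes, V5 against IgG called 10036, but 6420 when scaled to the median, 6040 and 6688 without V5 replicate 1 and 2, and 1240 without both arrays of conflicting description. Normexp called 3244 in GFP against IgG, 6272 in IgG against input, 5262 in V5 against input and 5712 in GFP against input, beside 12970, 12886, 12877 and 13238. V5 against GFP called 2452, but 3867 among genes above background on all arrays, 3766 with plain subtraction, 4 without the filter, 2 with the block, 2 with only the 2 groups, 4 without both conflicting arrays and 5 to 145 without 1 array.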
